A study of Mus musculus with 2 samples.

Results

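C4b Mdk fibroblasts are a class of fat fibroblasts whose members had at least 4 of 7 genes on, among them complement C4b and, less often, midkine (Mdk). They were chosen by read levels in single cells of 1 pooled library, so what the choice used is given as description and no test is made. Of 11750 cells with a hashtag call, 10521 had at most 25% mitochondrial reads, and 3053 of those passed a fibroblast gate. A gene was on in a cell at 100 CPM, its reads scaled to a fixed total in every cell. The gate asked for at least 3 of Pdgfra, Lum, Dpt, Clec3b and Mfap5 on, and for summed C1qa, C1qb, Cdh5 and Upk3b below 500 CPM. Members had at least 4 of C4b, Mdk, Serpina3n, Cpxm1, Sned1, Cfb and Col6a5 on, and fewer than 4 of the 6 progenitor genes Dpp4, Pi16, Cd55, Sema3c, Smpd3 and Efhd1. This left 671 members, 22.0% of the fibroblast-gate cells (95% exact binomial interval 20.5 to 23.5), against 2382 other fibroblasts.

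The cells were the stromal vascular fraction, the part of fat left when adipocytes are removed after enzymatic digestion, of epididymal fat from male C57BL/6J mice labelled WT. They had eaten standard diet (16 weeks) or high-fat diet (8 or 16 weeks), and the title of the series names communication between macrophages and fibroblasts in fibrosis of obese fat as its subject. Suspensions were stained with hashtag antibodies, pooled, and run on the BD Rhapsody system, which captures single cells with barcoded beads, followed by the TAS-Seq amplification method. The 2 deposited libraries, transcriptome and hashtag, come from that 1 pool. The 9 hashtag populations, A0301 to A0305 and A0307 to A0310, are not tied to a diet in the sources used here, so they are unassigned samples, no diets were compared, and nothing says how many mice each holds.

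Fibroblasts of fat make and remodel the collagen-rich matrix around adipocytes and hold the precursors of new adipocytes. The best known precursor state expresses Dpp4 and Pi16, lies in the connective tissue between lobules and gives rise to more committed cells. Complement is a cascade of plasma and tissue proteins in which C4 and C2 form the classical-pathway convertase, factor B (Cfb) serves the alternative pathway, and both cleave C3. Midkine (Mdk) is a heparin-binding growth factor read by syndecans and other cell-surface receptors.

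The members held a median of 55674 reads and 3572 genes per cell, against 45192 reads and 3192.5 genes in the other fibroblasts. Mitochondrial reads took a median of 3.62% and 3.77%. The deposited values are reads, and several reads can stem from 1 molecule. All intervals given count cells of 1 pool, which are not replicates, so they cover counting error only and are too narrow. Of the genes in the table, 446 have no value from 1 to 4, so a 0 of such a gene can hide a few reads. A level here is the summed reads of a gene over a class of cells, as CPM of all reads of that class, and levels are compared within a gene. Such a sum weighs each hashtag population by its cells, and ratios were therefore also taken from levels averaged over the 9 populations with equal weight.

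All 5 fibroblast genes of the gate were on in 414 of the 671 members, and every cell compared was chosen on them. Of fibroblast genes outside the gate, Col1a2, a chain of type I collagen, was on in 100% of members and 95.6% of other fibroblasts. Dcn, decorin, stood at 18788 and 15502 CPM. Macrophage markers summed to 369 CPM and 448 CPM, with none of the 8 genes higher in members. C1qa and C1qb of that list, and Cdh5 and Upk3b of others, were limited by the gate. Endothelial markers summed to 28.0 and 32.2 CPM, mesothelial markers to 51.8 and 44.4 CPM and T cell markers to 13.8 and 9.72 CPM. Mural cell markers summed to 90.6 and 56.2 CPM, with 5 of 7 genes higher in members. Mmrn1 and Ccl21a of lymphatic endothelium and S100a8, S100a9 and Retnlg of neutrophils were at 0 in members.

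The 7 selecting genes were not equally common among the members. Cpxm1, a secreted carboxypeptidase-like protein, was on in 93.6% of members and 33.6% of other fibroblasts. C4b, on chromosome 17 at 34728380 to 34743882 (GRCm38, minus strand), was on in 87.5% and 13.4%, at 1609 and 86.0 CPM. Col6a5, a collagen VI chain, was on in 83.8% and 33.9%, at 2023 and 391 CPM. Serpina3n, a secreted inhibitor of serine proteases, was on in 75.4% and 14.2%. Cfb was on in 74.7% and 20.7%, and Sned1, a matrix glycoprotein, in 65.1% and 10.8%. Mdk, on chromosome 2 at 91929805 to 91932297 (minus strand), was the least common of the 7, on in 34.1% of members and 2.14% of other fibroblasts, at 151 and 10.2 CPM. C4b, Serpina3n and Cfb were thus on in most members, and Mdk in 229 of 671.

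Shares in cells outside the fibroblast gate give a background. It can hold stray reads and expression by those cells, which were not told apart. In 2881 macrophage-gate cells, with a median of 66081 reads, C4b was on in 7.67%, Serpina3n in 0.798%, Mdk in 0.868% and Cpxm1 in 0.764%. In 513 T cell-gate cells (at least 2 of Cd3e, Cd3d, Cd3g, Trac and Trbc2 on), with a median of 15329 reads, C4b was on in 1 cell, Mdk in 2 and Serpina3n in 0. C4b, Serpina3n, Cpxm1 and Col6a5 have no value below 7, 6, 6 and 8 reads. At 15329 reads these 4 can be on only above 100 CPM, which can lower such shares. Members were chosen for having the selecting genes on, so their own shares are not compared with this background.

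The rule cut through a gradient. Of the members, 219 had 4 of the 7 genes on, 209 had 5, 172 had 6 and 71 had 7. Another 268 fibroblasts with few progenitor genes had 3 on and stayed outside. C4b stood at 722 CPM in members with 4 on and 272 CPM in cells with 3 on. Mdk stood at 63.6 and 35.9 CPM and Cfb at 249.95 and 178 CPM in the same cells. A further 63 fibroblasts met both the C4b and the progenitor criteria, with a median of 89042 reads. They were not members and were counted with the other fibroblasts. Of the members, 205 had 1 progenitor gene on, 112 had 2 and 48 had 3, and the others had none.

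Members were a small share of the fibroblasts in some hashtag populations and near equal to all other fibroblasts in others. The share was 13.1% in A0301, 11.7% in A0302, 12.7% in A0303, 12.6% in A0304, 15.2% in A0305 and 16.7% in A0307. It was 45.7% in A0308 (159 of 348 cells, interval 40.4 to 51.1), 48.0% in A0309 (142 of 296, 42.2 to 53.8) and 38.8% in A0310 (71 of 183, 31.7 to 46.3). These intervals count cells of 1 pool, which are not replicates, and no test was made between unassigned samples. Progenitor-gate fibroblasts, with at least 4 of the 6 progenitor genes on and fewer than 4 of the 7 selecting genes, took 16.7%, 12.8% and 17.5% of fibroblasts in A0308, A0309 and A0310. In the other 6 populations they took 29.6% to 39.5%.

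The shares were also taken by depth and by hashtag quality. Among fibroblasts below 15000 reads 4.69% were members, from 15000 to 30000 reads 15.6%, from 30000 to 60000 reads 26.3%, and above that 26.0%. In cells below 60000 reads, the selecting genes that lack low values (C4b, Serpina3n, Cpxm1 and Col6a5) can be on only above 100 CPM. This bears on every share below 60000 reads, and most on that of the shallowest cells. Thinning every cell to 10000 reads and leaving out shallower ones gave 23.1% over all populations, against 22.0%. With only cells of at least 20000 reads the shares were 50.8%, 53.3% and 43.4% in A0308, A0309 and A0310, and 12.9% to 18.1% in the rest. Fibroblasts carried few hashtag counts, a median of 48 in members against 1560 in cells outside the fibroblast gate. A clear hashtag, meaning 10 or more tag counts of which 2/3 or more fell on the called tag, was present in 34.4% of members and 34.7% of other fibroblasts. Within cells that had one, the share was 48.0%, 48.6% and 37.0% in A0308, A0309 and A0310, and 6.84% to 17.3% elsewhere, as the plot of shares by hashtag population shows.

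**Figure D1:**
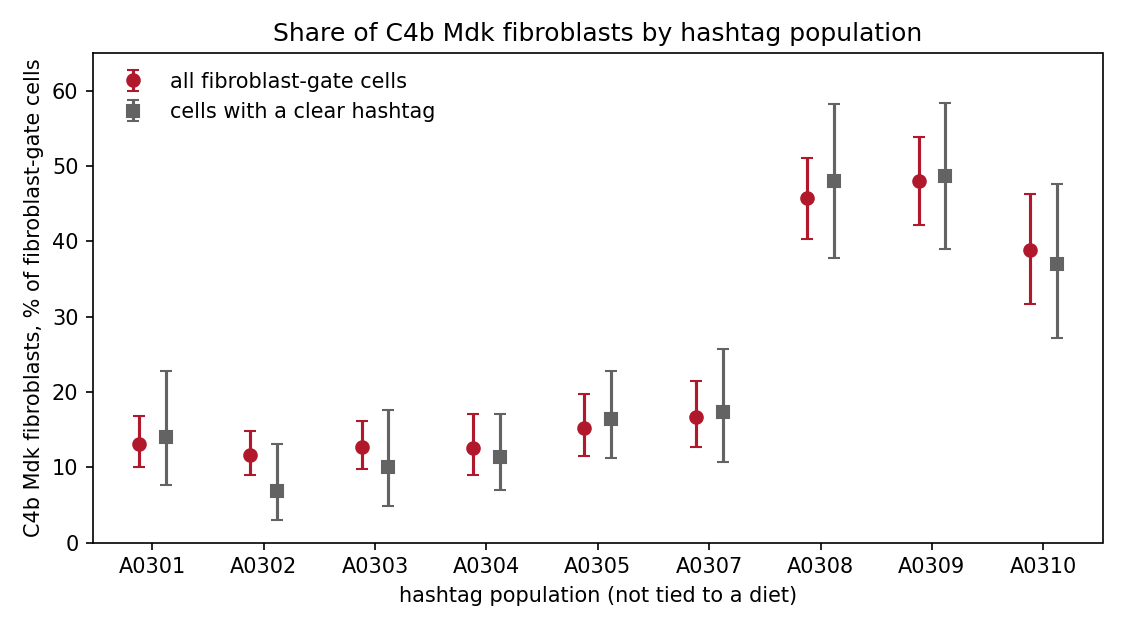
Share of C4b Mdk fibroblasts among fibroblast-gate cells (y axis, percent) in each of 9 hashtag populations (x axis), for all cells (circles) and for cells with a clear hashtag (squares); bars are 95% exact binomial intervals. A0308, A0309 and A0310 lie between 37.0% and 48.6% on both counts, and the other 6 populations between 6.84% and 17.3%.

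Genes that the rule did not use differed between populations too when all fibroblasts, members included, were added up. Such sums depend on the shares of members given above and are no separate support for them. Apoe, a lipid-carrying apolipoprotein, stood at 1468, 1543 and 904 CPM over all fibroblasts of A0308, A0309 and A0310, and at 291 to 498 CPM in the other 6 populations. Mmp2, a gelatin-cleaving protease, stood at 1051, 1098 and 1296 CPM there and at 485 to 648 CPM elsewhere. Fn1, fibronectin, did not separate them, with 4308 to 5268 CPM there and 4819 to 8587 CPM elsewhere. Fbn1, fibrillin 1, was lower there, at 1960, 1794 and 2253 CPM, against 2651 to 4448 CPM elsewhere.

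Against the other fibroblasts, 6928 genes outside the rule reached 20 CPM in 1 of both classes. Of these, 187 (2.70%) were at least 2-fold higher in members and 190 (2.74%) at least 2-fold lower, and the median ratio was 0.939. These shares are the background for the counts that follow. At any fold, 392 of the 6928 genes were higher in members in all 9 populations and 588 were lower in all 9. That is the background for statements on direction in all 9 populations. The share of all genes whose population ranges did not overlap is not given here. A stricter set, also 2-fold different when cells were averaged instead of summed and when hidden low values were filled in, and in the same direction in all 9 populations, held 114 higher and 127 lower genes. Ratios without the extra conditions describe cells chosen on correlated genes, and show what goes with the selecting genes. No replicate stands behind them. With equal weight for each population the ratio was 2.49 for Ctsk, 2.63 for Mmp2, 3.16 for Lbp and 8.55 for Apoe, against 2.80, 2.94, 3.66 and 10.4 from the pooled sums.

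Complement genes were high in the members. Of 10 complement genes at the level asked for, 4 were at least 2-fold higher and none was 2-fold lower, with a median ratio of 1.89. C3, the component on which all pathways converge, was on in every member and in 96.6% of other fibroblasts. It was also on in 31.6% of T cell-gate cells and 19.9% of macrophage-gate cells. Its level ran from 7261 to 10182 CPM over the 9 populations (median 8633) in members and from 3294 to 4740 CPM (median 3914) in other fibroblasts, without overlap, and was 2.12-fold higher overall. C2 stood at 194 and 37.4 CPM, from 95.2 to 295 CPM in members and 13.8 to 76.7 CPM in other fibroblasts, again without overlap. C7, part of the membrane attack complex, stood at 512 and 181 CPM, and its ranges, 176 to 748 and 55.5 to 381 CPM, did overlap. C4a stood at 24.1 and 1.70 CPM. The initiator protease genes C1ra (ratio 1.88) and C1s1 (1.38) and their inhibitor Serping1 (1.88) were higher in members by less than 2-fold, each in all 9 populations.

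Some of these complement genes share a locus. On chromosome 17, C4b, C4a, Cfb and C2 lie within 170 kb, and 85 bases separate the annotated ends of Cfb and C2 on the minus strand. C4a and C4b are near-identical copies, so reads may have been split between them. Serpina3n has close relatives in its own cluster and its reads are uncertain for the same reason.

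Acute-phase genes showed a similar pattern with fewer robust members. Of 9 serpin and acute-phase genes tested, 3 were 2-fold higher and none lower, with a median ratio of 1.95. Lbp, which binds bacterial lipopolysaccharide, was 3.66-fold higher, at 586 and 160 CPM. It ranged from 235 to 869 CPM in members and 75.9 to 248 CPM in other fibroblasts, and the ranges just overlapped. Saa3 and Lcn2 passed the fold in the sum (2.18 and 2.16) and with populations weighted equally (2.78 and 2.27), but not in the mean of cells (1.23 and 1.80), and were higher in 6 of 9 populations. A single cell held 42.1% of the members' Saa3 reads, and without A0305 its ratio was 1.20. For Lcn2 the ratio without A0305 was 1.80.

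Promoters of the selecting gene Serpina3n and of C3 are shown because they stand for the acute-phase and complement genes. Both are RefSeq sequences of build GRCm38.p6, from 250 bases before to 50 after the gene start, read on the strand of the gene. Capitals mark the only match to any of 6 motifs searched on both strands. The motifs were TTCNNNGAA (STAT), TTGCNNAA (C/EBP), TGANTCA (AP-1), CACGTG (E-box), a loose NF-kappa B site (GGG and TTCC with any 3 bases between) and an interferon-response element (GAAA and GAAA with any 2 bases between). The Serpina3n window is chr12:104406458-104406757, plus strand, with an NF-kappa B match, and the C3 window is chr17:57228087-57228386, minus strand, with a C/EBP match.
Serpina3n: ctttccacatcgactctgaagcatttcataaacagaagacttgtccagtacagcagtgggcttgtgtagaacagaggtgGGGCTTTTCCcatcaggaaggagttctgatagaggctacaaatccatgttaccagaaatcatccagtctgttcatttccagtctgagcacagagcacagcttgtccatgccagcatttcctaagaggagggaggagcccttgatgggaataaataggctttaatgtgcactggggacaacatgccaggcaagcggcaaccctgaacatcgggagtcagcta
C3: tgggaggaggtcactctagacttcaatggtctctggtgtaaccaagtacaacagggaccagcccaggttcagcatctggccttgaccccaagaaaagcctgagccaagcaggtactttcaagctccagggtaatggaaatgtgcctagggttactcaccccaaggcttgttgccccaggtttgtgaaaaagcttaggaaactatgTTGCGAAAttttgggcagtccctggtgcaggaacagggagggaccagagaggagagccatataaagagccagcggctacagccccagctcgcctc
Of 32851 promoters in the same table, 5.555% held the loose NF-kappa B motif, 8.298% the STAT motif, 10.8% the C/EBP motif, 7.808% the AP-1 motif, 7.15% the E-box and 3.443% the interferon motif. A promoter was found for 4 of the 7 selecting genes. Among 20 genes with a promoter from the 25 genes with the largest ratio against other fibroblasts, 4 held the NF-kappa B motif (Olfm2, Tmem176a, Tmem176b and Septin4), 3 the E-box, 2 the STAT motif, 2 the C/EBP motif, 1 the AP-1 motif and 1 the interferon motif. A gene was counted if any of its promoters matched, while the percentages count single promoters, so counts and percentages are unlike measures. A match describes letters and is no evidence of binding.

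Matrix proteases were the matrix group in which members differed most often upward. Of 17 protease and inhibitor genes tested, 6 were 2-fold higher and 1 was 2-fold lower, with a median ratio of 1.39. Mmp2 stood at 1457 and 495 CPM. Over the 9 populations it ran from 1036 to 1798 CPM (median 1442) in members and from 389 to 904 CPM (median 490) in other fibroblasts, without overlap. Mmp14, the membrane protease that activates pro-MMP2, stood at 985 and 424 CPM (2.32-fold), with ranges of 634 to 1262 and 350 to 557 CPM that did not overlap. Ctsk, a collagen-cleaving cathepsin, stood at 860 and 307.1 CPM, with ranges of 470 to 1023 and 199 to 517 CPM that overlapped at their ends. Mmp3, stromelysin 1, was 6.64-fold higher, at 398 and 59.9 CPM, and 2.83-fold higher once hidden low values were filled in. It was on in 21.2% of members, and 1 cell held 13.8% of the members' reads.

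The inhibitors of these proteases went in different directions. Timp1 was 2.78-fold higher, at 438 and 157 CPM, and highest in members of A0310 (1066 CPM). Without A0310 its ratio was 2.33. Timp3, which is bound to the matrix, was lower, at 271 and 641 CPM, and lower in all 9 populations. Timp2 differed by less than 2-fold, at 3880 and 4801 CPM. Cpxm2 passed the fold in the sum (2.28) but not with A0308 left out (1.98).

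Structural collagens did not differ by 2-fold. None of 6 fibrillar collagen genes and none of 4 collagen VI genes outside the rule passed the fold, with median ratios of 1.29 and 1.36. Col1a1 stood at 3263 and 1861 CPM (ratio 1.75, higher in all 9 populations) and Col3a1 at 11685 and 8920 CPM (ratio 1.31, higher in 8). The populations overlapped for both, with Col1a1 from 1874 to 4398 CPM in members and 1388 to 2404 CPM in other fibroblasts. Lox, which cross-links collagen, had a ratio of 1.75. Pcolce, an enhancer of procollagen C-proteinase, had 2.16, or 1.96 with low values filled in, and its relative Pcolce2 was lower, at 300.1 and 698 CPM.

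Other matrix genes were split. Of 12 basement membrane genes 3 passed the fold upward, namely Nid2 (2.44), Col15a1 (2.24) and Col18a1 (2.21), and none passed downward. Only Nid2 of the 3 stayed above 2-fold under all of equal weights, per-cell means, filled low values and each population left out. Sparcl1 (1676 and 644 CPM), Spon1 (129 and 42.0 CPM), the microfibril gene Mfap2 (163 and 64.1 CPM) and vitronectin, Vtn (95.0 and 18.8 CPM), were higher. Fn1 was lower, at 3021 and 7168 CPM, and its ranges of 2188 to 4230 and 5301 to 9746 CPM did not overlap. Fibrillin 1, Fbn1, was lower too, at 1044 and 3755 CPM, with ranges of 819 to 1515 and 2619 to 5153 CPM. Col14a1 (378 and 959 CPM), Col12a1 (9.20 and 39.0 CPM), asporin, Aspn (301.6 and 948 CPM), and the hyaluronan synthase Has2 (9.80 and 35.4 CPM) were lower as well. Of 8 leucine-rich proteoglycan genes, 2 passed upward (Fmod and Podn) and 2 downward (Omd and Aspn). Fmod stood at 1.13 with low values filled in. The class has been called matrix-remodelling, and in these lists that name matched proteases and Timp1 at 2-fold but no fibrillar collagen.

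**Figure D2:**
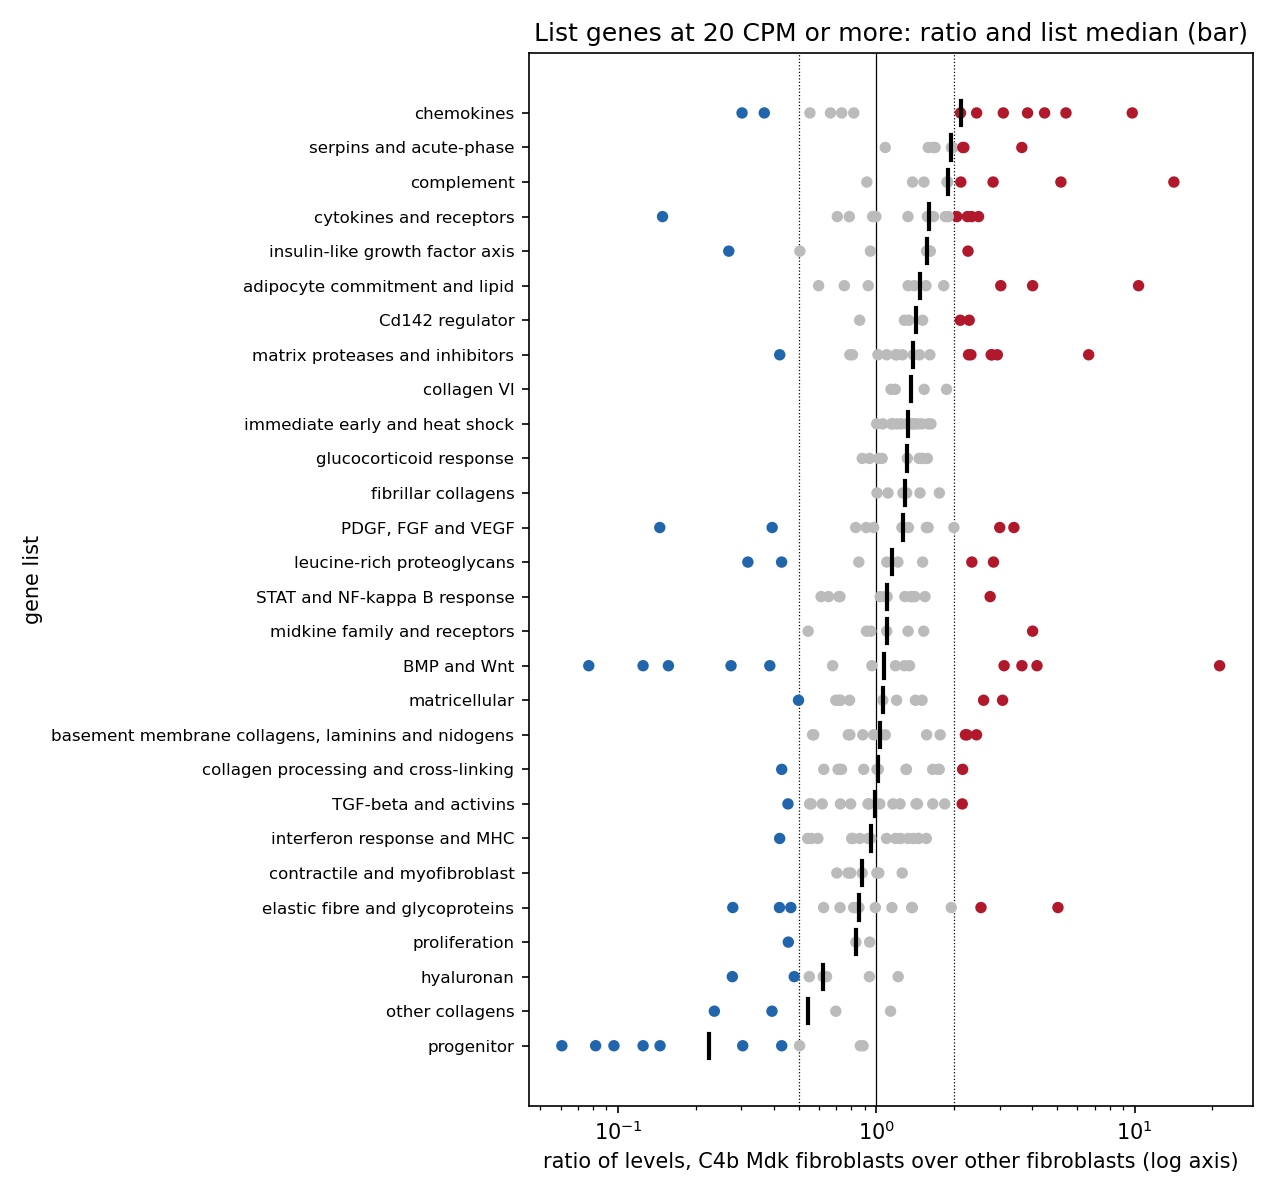
Ratio of levels in C4b Mdk fibroblasts over other fibroblasts (x axis, log scale) for each gene of 28 lists at 20 CPM or more in 1 of both classes, 1 row a list; the bar is the list median, dotted lines mark 2-fold, and colour marks genes past it. Chemokines have the highest median (2.12) and progenitor genes the lowest (0.225), and all fibrillar collagens lie inside the dotted lines.

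Chemokines held the highest list median, 2.12, with 7 of 13 tested genes 2-fold higher and 2 lower, but the count overstates what is shared by the members. Cxcl12, which attracts CXCR4-bearing leukocytes and progenitors, was on in 78.1% of members and 33.3% of other fibroblasts. Its level ran from 591 to 1311 CPM (median 937) over the populations in members and from 133 to 277 CPM (median 178) in other fibroblasts, without overlap, and was 5.42-fold higher overall. Ccl19, a ligand of CCR7, was 3.85-fold higher, at 91.2 and 23.7 CPM. Cxcl12 and Ccl19 were the 2 of 7 that stayed above 2-fold under every way of adding up and were higher in all 9 populations.

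The other chemokines past 2-fold were less even. Cxcl9 was on in 20 members, 1 cell held 54.2% of its reads, and it was higher than in other fibroblasts in 4 of 9 populations. Its ratio was 9.79, or 4.38 without A0305. Cxcl13 was on in 13 members and had a ratio of 1.02 without A0308. Ccl8 (0.995), Cxcl13 (1.04) and Cxcl14 (1.61) lost the fold when low values were filled in. Cxcl16 passed at 2.12 and stood at 1.98 without A0307. Ccl2, the main monocyte attractant, was lower than in other fibroblasts in all 9 populations, at 212 and 702 CPM. It was not lower than in the Fmo2 class described below.

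Cytokine receptors and adhesion genes followed in smaller steps. Of 15 cytokine and receptor genes 4 passed upward and 1 downward. Il1r1, the receptor of IL-1, stood at 199 and 80.1 CPM, and Osmr, the oncostatin M receptor, at 214 and 91.4 CPM, both higher in all 9 populations. Il33 (2.25) and Tnfsf13b (2.05) stood at 1.90 without A0310 and 1.86 without A0307. Tnfrsf11b, the decoy receptor osteoprotegerin, was lower, at 11.8 and 79.2 CPM. Vcam1 was higher, at 189 and 68.6 CPM, and was the only 1 of 13 genes of the STAT and NF-kappa B list past the fold. Interferon and antigen-presentation genes had 0 of 17 higher and 1 lower, with a median ratio of 0.951.

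Receptors of midkine were measured beside their ligand. Of 7 tested genes of the midkine family and its receptors, Sdc1, a syndecan, was 4.03-fold higher, at 57.0 and 14.1 CPM. Lrp1 had a ratio of 1.33 and Ncl, nucleolin, 0.916. Ptn, the sister ligand pleiotrophin, was at 4.74 and 10.3 CPM, under the level asked for. The receptor gene Ptprz1 was at 0.144 CPM in members.

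Lipid genes were part of the pattern. Of 10 adipocyte-commitment and lipid genes tested, Lpl, Apoe and Sdc1 passed upward, and none passed downward. Lpl, lipoprotein lipase, stood at 2626 and 866 CPM, with ranges of 1698 to 3754 and 594 to 1887 CPM. Apoe stood at 2083 and 201 CPM, with ranges of 1427 to 2693 and 72.3 to 452 CPM that did not overlap. Apoe has no value below 23 reads, and with low values filled in its ratio was 3.93 in place of 10.4. Apoe and Lpl were more abundant in 2881 macrophage-gate cells (C1qa and C1qb at 500 CPM or more in sum), at 6174 and 6917 CPM, and Ctsk stood at 795 CPM there. The macrophage markers Adgre1 (3.85 and 6.34 CPM), Csf1r (7.44 and 9.64 CPM) and Lyz2 (280 and 326 CPM) were no higher in members than in other fibroblasts. The adipocyte markers Adipoq, Plin1, Cidec, Lep and Retn summed to 9.03 and 10.6 CPM.

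Growth factors and their antagonists lay on both sides. Of 14 BMP and Wnt genes 4 passed upward and 5 downward. The BMP modulator Bmper (341 and 81.3 CPM), the Wnt antagonists Sfrp1 (711 and 194 CPM) and Dkk3 (55.2 and 17.7 CPM) were higher. Bmp2 (5.27 and 33.7 CPM), Bmp6 (4.33 and 56.3 CPM), Wnt2 (2.82 and 22.5 CPM), Wnt11 (12.7 and 32.8 CPM) and Sfrp4 (90.1 and 329 CPM) were lower. Grem1 passed at a ratio of 21.3, with 91.3% of its reads in 1 cell of the members, and at 3.30 without A0309. Igf1 stood at 741 and 327 CPM (2.26, or 1.91 with low values filled in), Fgf7 at 78.4 and 23.0 CPM, and Fgf2 at 42.7 and 108 CPM. Of 16 genes of TGF-beta and activins, 1 passed upward (Fst, 2.15, or 1.95 without A0304) and 1 downward (Fstl1, at 2204 and 4847 CPM).

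**Figure D3:**
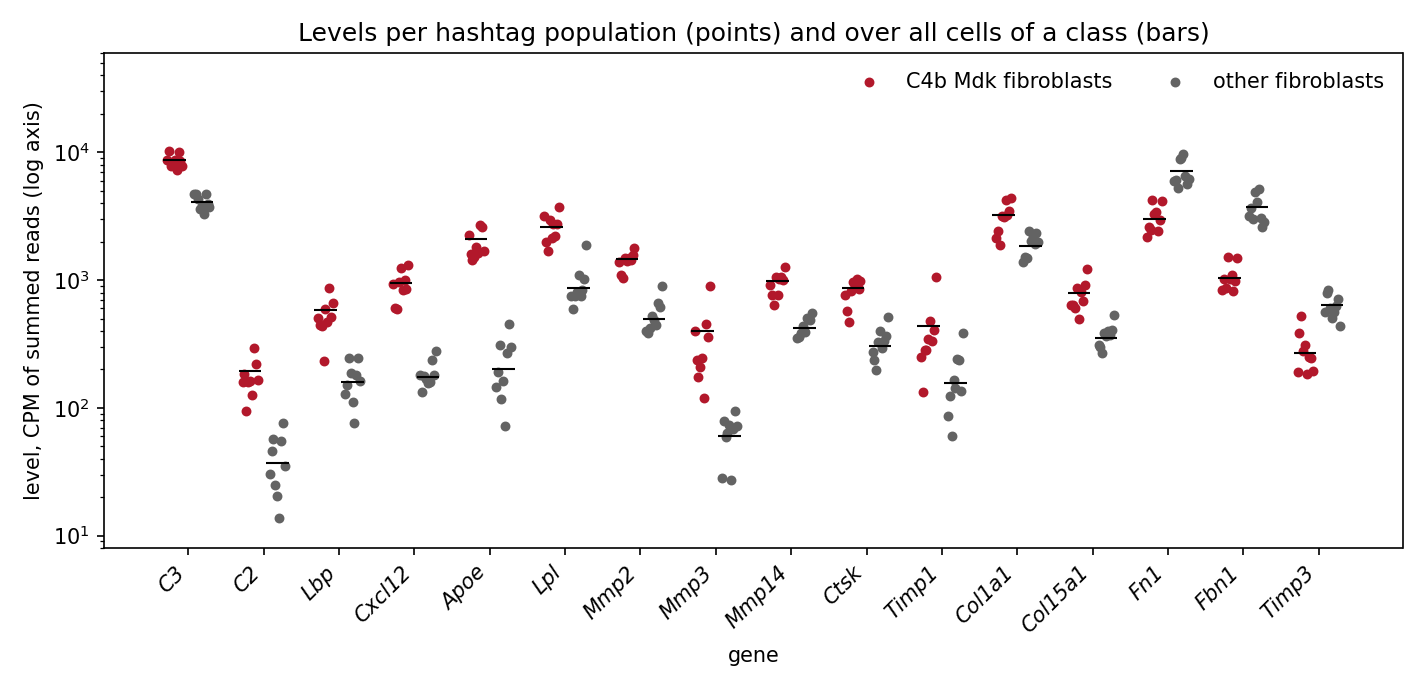
Levels of 16 genes (y axis, CPM of summed reads, log scale) in each of the 9 hashtag populations, for C4b Mdk fibroblasts (red) and other fibroblasts (grey); bars are levels over all cells of the class. C3, C2, Cxcl12, Apoe, Mmp2, Mmp3 and Mmp14 are separate between the classes, and Fn1, Fbn1 and Col1a1 show the lower, lower and overlapping cases.

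The 25 genes with the largest upward ratio in the stricter set were mostly low in level. Rgs16, which shortens G-protein signals, was 20.1-fold higher, at 96.7 and 4.80 CPM, and on in 16.2% of members. The mural markers, at 90.6 and 56.2 CPM in sum, were also higher in members, and their part in it was not tested. Olfm2 (28.9 and 1.93 CPM), Nfasc (37.3 and 3.56 CPM), Fndc5, the irisin precursor (65.2 and 6.74 CPM), and Cpz, a carboxypeptidase that acts on Wnt ligands (53.3 and 6.19 CPM), followed. Tmem176a (140 and 17.1 CPM) and Tmem176b (265 and 35.8 CPM) overlap by 578 bases on chromosome 6, so their reads may be shared. Fbln7 (187 and 32.1 CPM), Agt, angiotensinogen (280 and 55.5 CPM), and Aldh1a2, which makes retinoic acid (139 and 31.6 CPM), were also among the 25. Kng2, Cyp7b1, Lypd1, Hpca, Septin4, Prkar2b, Ephx2 and Plscr2 complete the set with 20.3 to 51.2 CPM in members and ratios from 4.16 to 7.76.

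Most of the 15 genes with the smallest ratio stood below 10 CPM in members. Adamts16 stood at 0.939 and 47.7 CPM, Wnt10b at 0.458 and 22.2 CPM, and Ccn3 at 5.15 and 189 CPM. Duox1 (1.06 and 25.5 CPM) and Duoxa1 (3.37 and 43.7 CPM), an oxidase that makes hydrogen peroxide and its maturation factor, lay together at the low end. Bmp6, Bmp7, Dact2, Stmn4, Limch1, Aif1l, Chst1, Anxa3, Pcsk6 and Sema3e made up the rest, with Pcsk6 (34.0 and 343 CPM) and Anxa3 (55.3 and 574 CPM) above that level. Of 10 further genes of the Dpp4 Pi16 progenitor state, 7 were 2-fold lower and none higher. The choice of few progenitor genes bears on that count.

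Against the 858 progenitor-gate fibroblasts, a larger share of genes passed 2-fold. Of 7016 genes, 373 (5.32%) were 2-fold higher in members and 359 (5.12%) lower. Olfm2, Cxcl14, Agt, Ednra and Mmp3 had the largest ratios under the same conditions, with Agt at 280 CPM and 3.15 CPM and Mmp3 at 398 and 4.69 CPM. Mrgprg, at 0 reads in members and 180 CPM in the progenitor gate, and Nefl, Bco1, Adamts16 and Wnt10b had the smallest. With low values filled in, the ratio of Cxcl14 was 2.65 in place of 133, that of Mmp3 5.36 in place of 84.8, and that of Mrgprg 0.431 in place of 0. Ednra stood at 13.8 with genes on at 200 CPM, against 85.4, and Olfm2 at 50.8 after thinning, against 159.9. Complement genes had 8 of 10 higher and none lower. Of the fibrillar collagens 1 of 6 was 2-fold higher, Col1a1 at 3263 and 1614 CPM.

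The Fmo2-gate fibroblasts are the other class compared. They had at least 3 of Fmo2, Gdf10, Clec11a and F3 on with fewer than 4 selecting and 4 progenitor genes, and numbered 175. Of the members, 82 had 3 of these 4 genes on and 13 had all 4, and they were counted as members. Against other fibroblasts, F3 (2.29) and Clec11a (2.11, or 1.89 with equal weights) were 2-fold higher in members. Gdf10 (192 and 150 CPM) and Fmo2 (218 and 253 CPM) were not. Of 6935 genes, 146 (2.11%) were 2-fold higher in members and 159 (2.29%) lower. Fn1 (3021 and 3038 CPM), Pcolce (827 and 802 CPM), Igf1 (741 and 819 CPM), Col15a1 (797 and 726 CPM) and Col1a1 (3263 and 3023 CPM) had ratios from 0.904 to 1.10. Cyp7b1, Rgs16, Kng2, Marcksl1 and Olfm2 had the largest ratios, each at 20.3 to 96.7 CPM in members and 1.03 to 6.55 CPM in the Fmo2 gate. With 175 cells in that gate these ratios were unsteady, all above 2-fold: over the alternatives Cyp7b1 ran from 3.40 to 43.7 (19.7 as reported), Rgs16 from 3.76 to 167 (14.8), Kng2 from 3.47 to 39.4 (12.7), Marcksl1 from 2.32 to 22.5 (11.1) and Olfm2 from 3.41 to 59.9 (10.3). Cxcl12 (951 and 276 CPM), Apoe (2083 and 358 CPM), Mmp2 (1457 and 590 CPM), Mmp14 (985 and 435 CPM) and C3 (8756 and 4300 CPM) were also more than 2-fold higher. Mfap2, Vtn, Timp1, Ctsk, Ccl19, Bmper, Il1r1, Lpl and Sdc1 passed 2-fold upward here too. Sparcl1, Spon1, Nid2, Lbp, C2, C7, Mmp3, Sfrp1, Fgf7, Osmr and Vcam1 passed it against other fibroblasts but not against this gate. Downward, Timp3, Pcolce2, Col12a1, Col14a1, Omd, Aspn, Has2 and Sfrp4 passed here too. Fbn1, Fn1, Fstl1, Fgf2 and Ccl2 did not, and all 13 tested chemokines, Ccl2 among them, had ratios above 1. Bmp2, Bmp6, Wnt2, Wnt11 and Tnfrsf11b did not pass downward here either, though fewer genes of their lists reached the level asked for. Of the complement genes 2 of 10 passed upward, C3 and C4a, whose reads may include those of the selecting gene C4b. C1qtnf3 (15.1 and 140 CPM), Alpl (12.4 and 98.7 CPM), Ackr4 (5.66 and 43.6 CPM), Ccn2 (96.5 and 549 CPM) and Fmo2, which chose that class, had the smallest ratios.

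**Figure D4:**
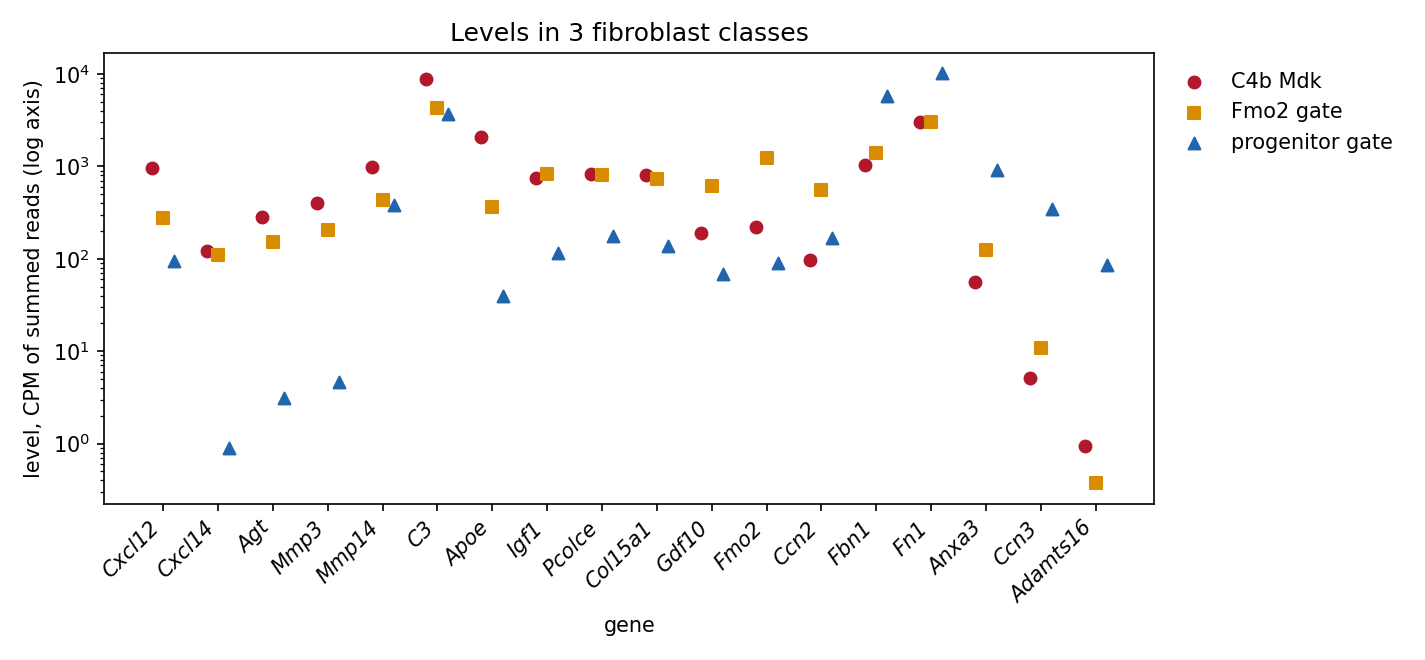
Levels of 18 genes (y axis, CPM of summed reads, log scale) in C4b Mdk, Fmo2-gate and progenitor-gate fibroblasts. Igf1, Pcolce, Col15a1 and Fn1 are close in the first 2 classes and apart from the progenitor gate, and Cxcl12, Apoe, C3 and Mmp14 are highest in C4b Mdk fibroblasts.

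Members varied among themselves along the number of selecting genes they had on. In 664 members thinned to 10000 reads, Spearman's correlation of 5724 genes with that number ran from -0.225 to 0.353 around a median of 0.010, and is given as a description across cells of 1 library. Cxcl12 (0.353), Apoe (0.319), Tmem176b, Tmem176a, Mmp14 and C2 came out highest. Fmo2 (-0.225), Ackr3, S100a10, Abca8a, Ptgis and Abca8b came out lowest. Cxcl12 stood at 479 CPM in members with 4 genes on, 817 CPM with 5, 1172 CPM with 6 and 1934 CPM with 7. Fmo2 went the other way, with 410 CPM, 207 CPM, 96.8 CPM and 67.6 CPM. Mmp2 went from 1082 to 2237 CPM, while Timp1 (423 to 453 CPM) and Fn1 (2834 to 3278 CPM) stayed level and Col1a1 was lowest, at 2656 CPM, in the members with all 7 on.

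**Figure D5:**
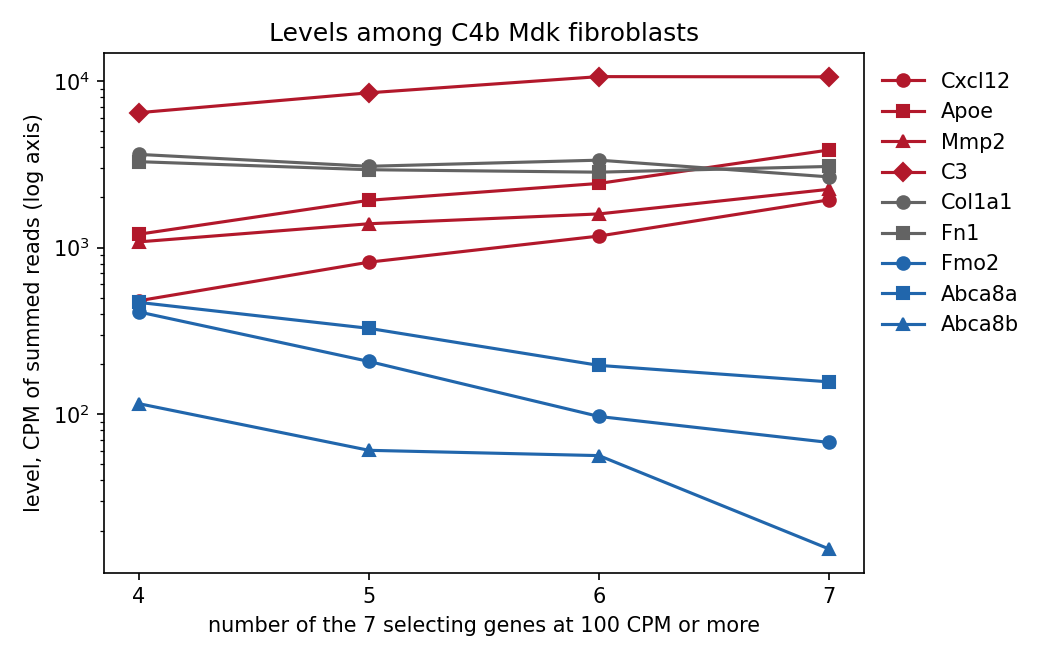
Levels of 9 genes (y axis, CPM of summed reads, log scale) in C4b Mdk fibroblasts with 4, 5, 6 or 7 of the 7 selecting genes on (x axis). Cxcl12 climbs from 479 to 1934 CPM and Fmo2 drops from 410 to 67.6 CPM, and Fn1 stays between 2834 and 3278 CPM.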

How the data were processed

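The transcriptome and hashtag libraries of 1 pooled sample were deposited as whole-number counts per gene or tag and cell, which the authors made with tools that included cutadapt 2.10, Bowtie2 2.4.2 and R 3.6.3 on build GRCm38, per the submitters' processing notes. How cells were called, tags assigned and doublets marked is not stated in the labels. The 12 of 12040 columns without a hashtag or doublet call, and the 278 doublet-called cells, were left out. No collapse of reads to molecules is recorded, so the counts were treated as reads (lowest cell 5169, median 37204, highest 736281). The name of the deposited table includes DBEC, a BD correction that discards low counts gene by gene, and whether it made the missing low values was not tested.

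Class levels were summed reads as CPM, compared as ratios of at least 2-fold with 20 CPM in 1 of both classes. With 1 library there was no replicate and no test. Intervals are 95% exact binomial. Named genes were the selecting genes, the 25 highest and 15 lowest ratios against other fibroblasts, and the 5 of each end against the 2 other classes. These ratios were taken among genes 2-fold different in sum, per-cell mean and with low values filled, in 1 direction in every population. The 6 of each end in correlation with the number of selecting genes were named too. Of list genes past 2-fold, only part are named. Genes beyond these were chosen after their values were seen. Members and lists were chosen with earlier results of these data known. Positions are GENCODE M21. Reads were also simulated as class sums, with 3-fold changes and no variation between cells or populations. There the ratio rule recovered 100 of 100 raised and 100 of 100 lowered genes and called 0 of 6414 unchanged ones. This checks the arithmetic of the rule and cannot measure false calls in real cells. Alternatives varied the thresholds, gates, depth, level minimum, doublet removal and populations. Equal weights, clear hashtags, the checks of single list genes and the shares in macrophage and T cell gates were chosen after seeing the data. Computation used Python 3.11.15, numpy 2.4.6, scipy 1.17.1, pandas 2.3.3, scanpy 1.11.5 and matplotlib 3.10.9.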

Additional observations from a re-analysis of the deposited data

Results flagged for a closer look

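Cells that carry the authors' doublet call were kept out of every comparison, and 46 of those 278 cells (16.5%, 95% exact binomial interval 12.4 to 21.4) met the rule for C4b Mdk fibroblasts. A count of 0 would have allowed up to 1.08%. Of the same cells, 188 (67.6%) passed the fibroblast gate, and 24.5% of those met the member rule, against 22.0% among cells with a hashtag call.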

How the results depend on the processing

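The 60 ratios of 51 genes with the largest or smallest values kept their direction and their side of 2-fold under the 22 alternatives that give ratios, but they were chosen to meet several of these conditions. Of the list genes past 2-fold against other fibroblasts, chosen with no such condition, 30 of 48 higher and 23 of 31 lower ones stayed past it in every way of adding up and in all 9 populations. The share of members among fibroblasts, 22.0%, moved to 19.2% with genes on at 200 CPM, 30.8% with 3 of 7 genes asked for, 14.8% with 5 of 7 and 24.8% with cells of at least 20000 reads, and ran from 18.9% (without A0308) to 23.9% (without A0302) with 1 population left out. Of 144 counts of genes, 129 stayed within 1.5 times. With a level of 1 CPM the higher and lower counts were 840 and 829 against other fibroblasts, 1498 and 1090 against the progenitor gate and 1538 and 1077 against the Fmo2 gate. With 50 CPM they were 112 and 114, 213 and 233, and 63 and 88. With genes on at 200 CPM 245 genes were lower than in the Fmo2 gate, and with clear hashtags, an alternative chosen after seeing the data, 340 were higher and 414 lower. The level minimum changes how many genes can be counted, and the other causes were not tested. Scrublet marked 233 of 10521 cells (2.21%), 12 of them members. The labels number no replicates, and both classes were compared within each hashtag population instead. Reads of 1 molecule are not independent, weak hashtag counts limit which population a fibroblast is put in, and 1 pool gives no replicate.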

Other observations

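In the stress-response, glucocorticoid-response and contractile lists no gene reached 2-fold against other fibroblasts, and 1 proliferation gene did. All 15 immediate early and heat shock genes had a ratio above 1 in members over other fibroblasts, up to 1.63 with a median of 1.33, and none reached 2-fold. Fos stood at 7744 and 5363 CPM, with population ranges of 6174 to 8775 and 3555 to 6779 CPM that overlapped, and Zfp36, an mRNA-decay factor, at 2507 and 1578 CPM. Of 9 glucocorticoid-response genes none passed 2-fold, with Tsc22d3 at 174.5 and 116 CPM. Contractile genes had 0 of 7 past 2-fold, and Acta2, smooth muscle actin, stood at 17.6 and 22.1 CPM. The proliferation genes Mki67 (3.20 and 17.3 CPM) and Top2a (1.52 and 13.1 CPM) were lower in members but under the level asked for in both classes. Of 3 proliferation genes tested, Stmn1 was 2.19-fold lower, or 1.27-fold with low values filled in, and lower in 7 of 9 populations. Against the progenitor gate Mki67 and Stmn1 of 5 tested were 2-fold lower, and against the Fmo2 gate Mki67 of 3.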
